A study of Mus musculus with 6 samples.

Results

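Heat shock proteins and their DNAJ co-chaperones were examined in aortic arches of mice whose bone marrow carried or lacked Mir21. The genes were taken by name: every non-control probe named for an HSP70, HSP110, HSP90, mitochondrial chaperonin or small heat shock protein gene, or for a DNAJA, DNAJB or DNAJC gene. The 5 members known mainly from the endoplasmic reticulum (Hspa5, Hsp90b1, Dnajb9, Dnajb11 and Dnajc3) were left out. The choice used names only and no measured value. It gave 103 probes for 68 genes among the 55681 probes of the array, and 93 of these probes, for 61 genes, were bright enough to test. The name pattern also took in Hspbp1 and Hspbap1, which bind heat shock proteins without being chaperones of that family.

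Each of the 6 arrays held RNA of aortic arch, read here as 1 arch per array from the design's count of mice. Mice labelled BM Mir21 KO (KO) had received marrow of Mir21–/– donors, and those labelled BM Mir21 WT (WT) marrow of Mir21+/+ donors, with 3 arches in each group. All recipients were female C57BL/6 mice of Mir21+/+ genotype, so the cells of the vessel wall that do not come from marrow kept the gene in both groups. All had been X-irradiated over the whole body with 2 doses of 5 Gy, both given inside 4 hours, and were fed a high-fat diet for 12 weeks that began 3 weeks after irradiation. No atherosclerosis-prone genotype is named in the labels, and neither the animals' age nor the hour of tissue collection is given in the sources used here. The design text gives 3 mice per group. No probe was named Mir21 or Mir21a (0 of 55681), so the genotype of the marrow could not be read from the arrays.

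Heat shock proteins bind proteins that are unfolded, being made or being moved across membranes, and keep them from clumping. HSP70 proteins work in cycles of ATP binding and hydrolysis, DNAJ proteins hand them their clients and speed hydrolysis, and nucleotide exchange factors such as the HSP110 proteins release the client again. HSP90 proteins finish the folding of kinases and steroid receptors, the chaperonin of Hspd1 and Hspe1 folds proteins inside mitochondria, and small heat shock proteins hold unfolded proteins without using ATP. Heat and other protein damage release the transcription factor HSF1, which binds repeats of the letters GAA and TTC (heat shock elements) and raises a subset of these genes together. In arteries, small heat shock proteins also act on the actin filaments of smooth muscle.

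Values are log2 signals relative to the 75th percentile of each array, and a gene stands by its brightest tested probe. Differences are KO minus WT. Spots well above background made up 74.2%, 70.3% and 66.4% on KO arrays 1 to 3 and 74.4%, 71.2% and 73.9% on WT arrays 1 to 3. The 75th percentile ran from 239 on KO array 3 to 407 on WT array 3, and 0 spots were saturated. All arrays shared 1 slide, with the KO arrays in slide row 2 and the WT arrays in row 1, so that the group and the slide row cannot be told apart. Smooth muscle markers, which the labelled tissue should hold, were tested at 9 of 9 genes, with list means of 5.48, 5.93 and 6.09 on KO arrays 1 to 3 and 5.46, 5.62 and 5.38 on WT arrays 1 to 3. Markers of adipocytes, 20 of 20 tested, set arrays apart, with list means of 4.82, 2.39 and 1.32 on the KO arrays and 4.67, 3.86 and 4.87 on the WT arrays. KO arrays 2 and 3 were thus the lowest in fat genes, and they also had the smallest shares of spots well above background. In bulk tissue, fewer cells of a type and less RNA per cell cannot be told apart.

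No member passed the test across all probes. At an adjusted p under 0.05 (limma, Benjamini-Hochberg over 38341 probes), 0 of 93 member probes and 0 of 61 member genes were called, where 0.00261% of all tested probes, a single probe, were. The smallest adjusted p of a member was 0.445, for Hspb7. At an unadjusted p under 0.05, 3 member probes were higher and 2 lower in KO arches. The higher were for Dnajc5b, Hspb6 and Dnajc5 (its dimmest tested probe), and the lower for Hspb7 and Dnajc28. Over all tested probes 4.44% were higher and 4.27% lower by the same criterion, so the members' share was near the background. By brightest probe the count was 4 of 61 genes. This was 6.56% of the genes, against 8.71% of all tested probes in either direction. Without KO array 1 it was 18 genes (29.5%), against 17.9% of all tested probes in that fit, and without WT array 2 it was 7 (11.5%), against 9.41%. It was 2 genes (3.28%) without KO array 2, without KO array 3 or without WT array 3, against 8.29%, 6.64% and 4.04% of all tested probes, in that order. Single arrays thus moved both shares.

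The differences lay on both sides of 0. Of the 61 genes, 28 had a higher and 33 a lower mean in KO arches, with a median log2 difference of -0.06, against 0.02 over all tested probes. Single genes ran from -1.39 for Dnajc22, which was well above background on only 1 KO array and differed by -0.21 with normexp background correction, to 1.06 for Hspa1a. KO and WT arrays did not overlap for 3 genes with the higher values in KO (Dnajc5b, Hspb6 and Hspbp1) and for 3 with the lower values (Hspb7, Dnajb12 and Dnajc21). By probes, 4 of 93 lay apart in each direction, where 7.58% of all tested probes lay apart with KO higher and 6.14% with KO lower.

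**Figure D1:**
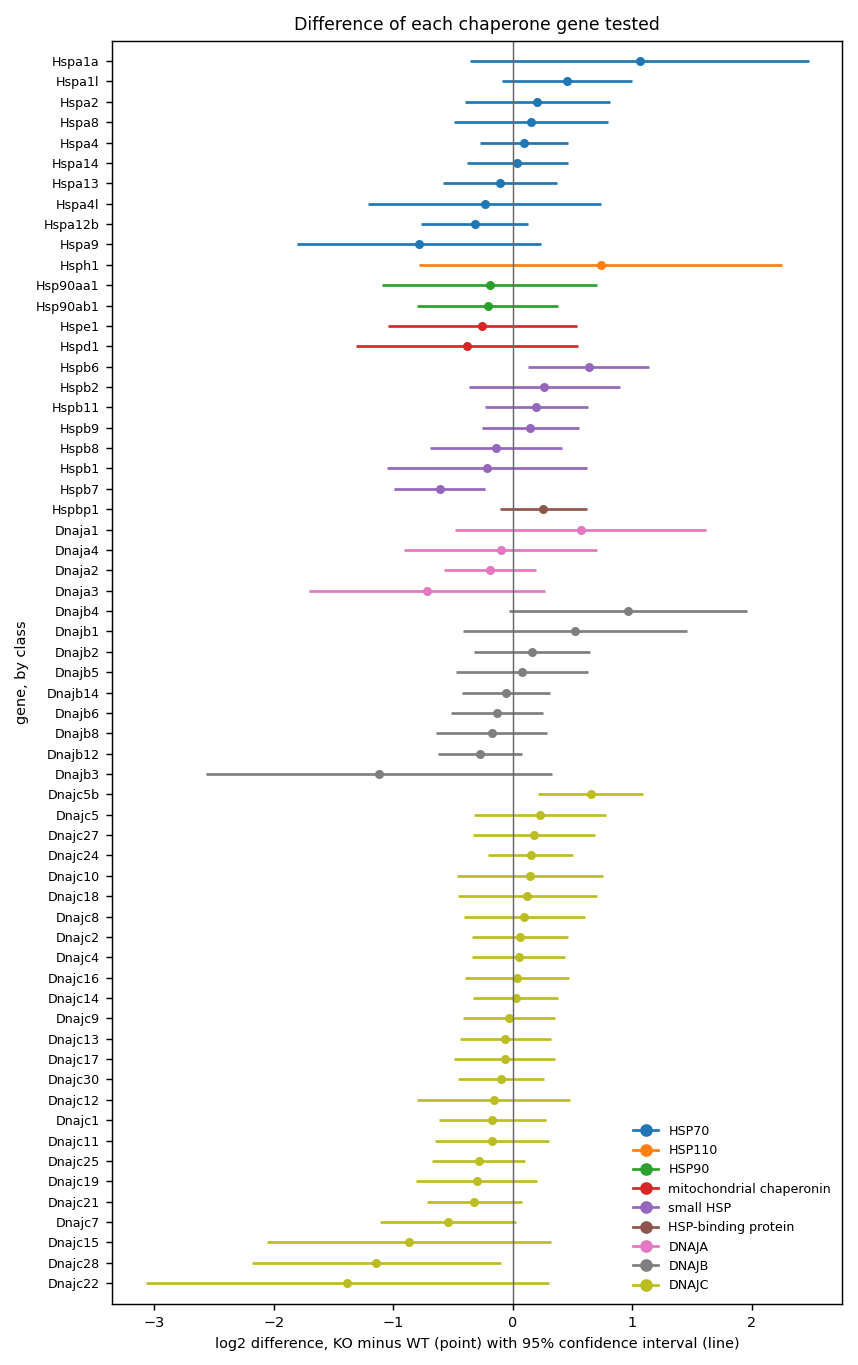
Log2 difference, KO minus WT (horizontal axis), of the 61 chaperone genes tested (vertical axis, grouped and coloured by class), with the 95% confidence interval from limma as a line (3 arrays per group). The differences run from -1.39 for Dnajc22 to 1.06 for Hspa1a, and the intervals of 4 genes (Hspb6, Dnajc5b, Hspb7 and Dnajc28) leave out 0.

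Classes follow the gene names, so that Hspa4 and Hspa4l count as HSP70 and Hspb11 as a small heat shock protein. Of the 10 tested HSP70 genes, 6 were on the higher side and 4 on the lower (median 0.07). Of 7 small heat shock protein genes, 4 were higher and 3 lower (median 0.15). Both HSP90 genes and both chaperonin genes were lower (medians -0.20 and -0.32). Of the co-chaperones, 1 of 4 DNAJA genes, 4 of 9 DNAJB genes and 11 of 25 DNAJC genes were on the higher side, with medians of -0.15, -0.05 and -0.06. None of these genes passed the adjusted test, and the medians are descriptions only.

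The heat-inducible chaperones, those whose transcripts rise with heat shock through HSF1, spread widely among the arrays of each group. The list holds 13 genes, of which 12 were tested: the HSP70 genes Hspa1a and Hspa8, the exchange factors Hspa4l and Hsph1, both HSP90 genes, Dnaja1, Dnajb1 and Dnajb4, the mitochondrial pair Hspd1 and Hspe1, and Hspb1. Hspa1b had no probe of its own among the members. In KO arches 6 of the 12 were on the higher side and 6 on the lower, with a median difference of -0.02, against 0.02 over all tested probes. Their list mean was 4.33, 4.88 and 5.21 on KO arrays 1 to 3 and 5.28, 4.02 and 4.48 on WT arrays 1 to 3. Within each group the arrays differed more than the groups did, with KO array 1 low among KO arrays and WT array 1 high among WT arrays.

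Start regions of these genes were searched for the heat shock element, and the stretches with a match before the start are shown so that the letters can be seen. The RefSeq promoter table (GRCm38.p6, 250 bases before to 50 after the start) held 9 of the 12 tested genes. Each window was searched on both strands for 2 facing units, GAANNTTC or TTCNNGAA, each of which is its own reverse complement. This 8-letter element was present in 7 of the 9 (77.8%) and in 17% of all 27025 genes of the table. Among the 54 member genes with a window, which include these 9, it was present in 15 (27.8%). A run of 3 facing units over 13 bases was in 3 of the 9 (33.3%), in 7.41% of the 54 member genes and in 0.662% of all genes. However, Hspd1 and Hspe1 share 1 start region and count separately in the shares of both elements. For the longer run they are 2 of these 3 heat-inducible genes. The other is Hsph1, whose run lies past the start and is not shown; its window held 3 matches of the shorter element. Hspa4l and Dnajb1 held no match in this window, and Hspa8, Hsp90aa1 and Hsp90ab1 were not in the table. The stretches are written 5′ to 3′ on the strand of the gene, with the matched letters in capitals.
Hspe1, chr1:55088024-55088111, plus strand: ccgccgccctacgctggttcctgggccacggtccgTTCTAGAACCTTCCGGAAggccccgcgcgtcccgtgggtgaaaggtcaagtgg
Hspa1a, chr17:34972213-34972300, minus strand: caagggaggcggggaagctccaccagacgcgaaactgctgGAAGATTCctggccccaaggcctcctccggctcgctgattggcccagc
Hsph1, chr5:149636337-149636409, minus strand: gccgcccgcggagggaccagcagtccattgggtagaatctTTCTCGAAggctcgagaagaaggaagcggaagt
Dnaja1, chr4:40722304-40722391, plus strand: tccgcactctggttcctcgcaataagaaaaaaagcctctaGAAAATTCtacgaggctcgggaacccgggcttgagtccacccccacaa
Dnajb4, chr3:152193846-152193899, minus strand: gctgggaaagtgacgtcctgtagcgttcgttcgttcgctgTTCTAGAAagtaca
Hspb1, chr5:135887782-135887869, plus strand: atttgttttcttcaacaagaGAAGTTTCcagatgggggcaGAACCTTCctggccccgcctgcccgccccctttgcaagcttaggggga
The Hspe1 stretch is also the start region of Hspd1, which is read from the opposite strand, and its 3 matches overlap in 1 run. A match describes these letters and is not a measurement of HSF1 binding. The list was chosen for induction through HSF1, so its high shares of the element are no separate evidence.

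Hspa1a, the HSP70 that is nearly silent in resting cells and made after heat, had the largest positive difference of any member. It lay at 0.86, 2.54 and 3.21 on KO arrays 1 to 3, against 1.95, 0.80 and 0.66 on WT arrays 1 to 3. KO arrays 2 and 3 were high, while KO array 1 fell among the WT arrays. The mean was 2.09-fold higher in KO arches (log2 difference 1.06 ± 0.61, SE, n = 3 per group, 95% interval -0.35 to 2.48, limma adjusted p = 0.654). Without KO arrays 2 and 3 the difference was -0.27. The probe, at chr17:35107117-35107176 of mm9 on the minus strand, is shown because the files list it for transcripts of both Hspa1a and Hspa1b, whose signals therefore cannot be told apart.
Hspa1a probe: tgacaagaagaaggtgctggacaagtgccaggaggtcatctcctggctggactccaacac

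Dnajb4 and Dnajb1 are cytosolic DNAJ partners of HSP70 and had the same high and low arrays. Dnajb4 lay at 0.70, 1.55 and 2.26 on the KO arrays and at 1.17, 0.25 and 0.20 on the WT arrays (log2 difference 0.97 ± 0.43, adjusted p = 0.58). Dnajb1 lay at 3.52, 4.51 and 4.98 on the KO arrays and at 4.35, 3.73 and 3.36 on the WT arrays (0.52 ± 0.40). For both genes KO arrays 2 and 3 were above every WT array and KO array 1 was not, so the groups overlapped. Dnaja1, a further cytosolic partner, lay at 4.10, 5.08 and 5.41 on the KO arrays and at 5.13, 3.68 and 4.07 on the WT arrays (0.57 ± 0.45), with WT array 1 above KO array 2. Without KO arrays 2 and 3 the differences were 0.16 for Dnajb4, -0.29 for Dnajb1 and -0.19 for Dnaja1.

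The exchange factors and the inducible HSP90 gene also differed more within groups than between group means. Hsph1, the inducible HSP110, lay at 3.69, 4.88 and 4.98 on the KO arrays and at 5.17, 2.54 and 3.63 on the WT arrays (0.74 ± 0.65). The WT arrays thus held both its highest and its lowest value of the 6. Hspa4l, of the same exchange factor type, lay at 1.51, 2.21 and 2.24 on the KO arrays and at 3.08, 1.41 and 2.18 on the WT arrays (-0.24 ± 0.42). Hsp90aa1, the stress-inducible HSP90, lay at 4.76, 5.33 and 5.73 on the KO arrays and at 6.17, 4.78 and 5.44 on the WT arrays (-0.19 ± 0.38). Here too WT array 1 was the highest of all 6 arrays, and KO array 1 the lowest of the KO arrays. Leaving out KO arrays 2 and 3 gave -0.10 for Hsph1 and -0.71 for both Hspa4l and Hsp90aa1.

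Genes that resting cells also express strongly showed the same order. Among the heat-inducible genes, Hsp90ab1 and the brightest Hspa8 probe had the smallest SD within groups (0.35 and 0.40). On other Hspa8 probes the SD was 0.67 and 0.71. Hsp90ab1, the constitutive HSP90, lay at 6.80, 7.19 and 7.24 on the KO arrays and at 7.74, 6.87 and 7.24 on the WT arrays (-0.21 ± 0.25). Hspa8, the constitutive cytosolic HSP70, lay at 7.69, 7.97 and 8.55 on the KO arrays and at 8.26, 7.56 and 7.92 on the WT arrays (0.15 ± 0.28). Hspb1, a small heat shock protein that binds actin, lay at 7.61, 8.37 and 8.55 on the KO arrays and at 9.01, 7.80 and 8.37 on the WT arrays (-0.21 ± 0.36). KO array 1 was the lowest of the KO arrays for each of them, and WT array 1 the highest of the WT arrays. The differences without KO arrays 2 and 3 were -0.49 for Hsp90ab1, -0.23 for Hspa8 and -0.78 for Hspb1.

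**Figure D2:**
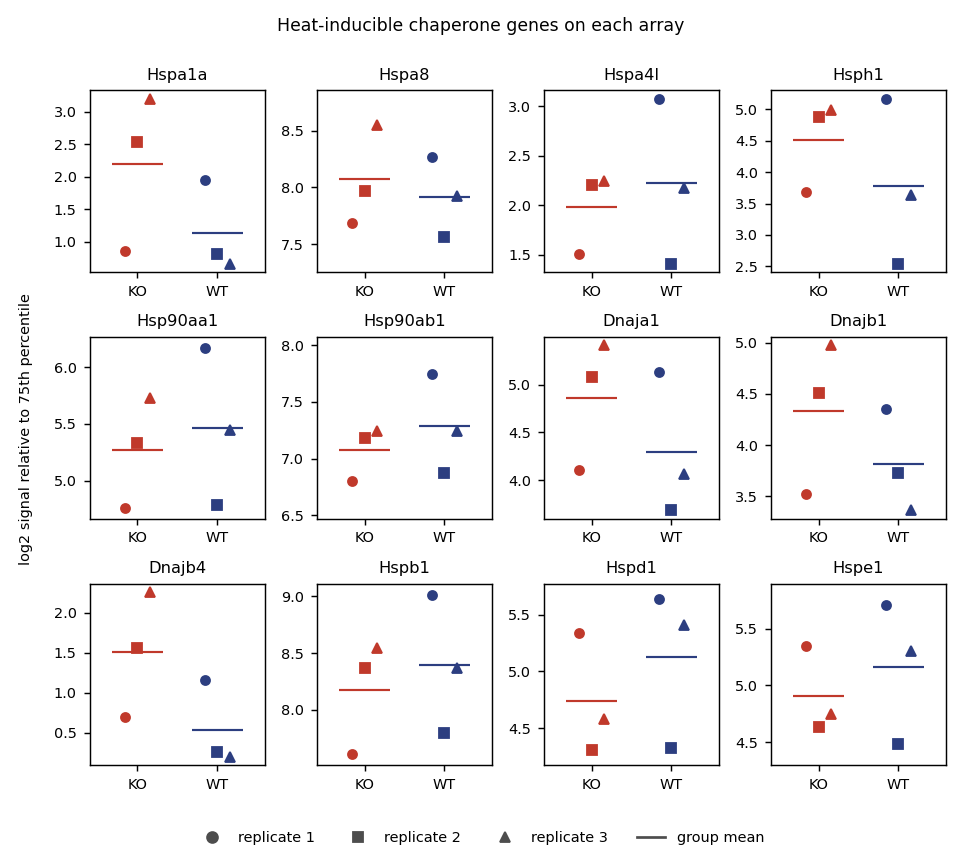
Log2 signal relative to the array's 75th percentile (vertical axes, each with its own range) of the 12 heat-inducible genes tested, by group (KO left, WT right), with 1 symbol per array and a line at the group mean (n = 3 each). WT replicate 1 is the highest WT array in all 12 panels, and KO replicate 1 the lowest KO array in 10, the exceptions being Hspd1 and Hspe1.

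Over the whole heat-inducible list, WT array 1 was the highest WT array for 12 of 12 genes, against 30.4% of all tested probes. KO array 1 was the lowest KO array for 10 of 12, against 37.5%. Both held for 10 of 12 genes (83.3%), for 31.1% of the 61 member genes and for 11.2% of all tested probes. The exceptions were Hspd1 and Hspe1, for which KO array 1 was the highest KO array. These genes share the same 6 RNA samples, so the counts describe the arrays and carry no test.

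The spread within groups, pooled over both, had a median SD of 0.63 (log2) for the 12 heat-inducible genes, 0.24 for the other 49 member genes and 0.25 for all tested probes. Of the 12, 9 lay above 0.54, the 90th percentile of all tested probes, against 6 of the other 49. The widest was Hsph1 at 1.07 and the narrowest Hsp90ab1 at 0.35. With this spread and 3 arrays a group, the 95% interval of Hspa1a reached from -0.35 to 2.48 and that of Hsph1 from -0.79 to 2.26. Differences of that size could therefore not be detected for these genes here.

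**Figure D3:**
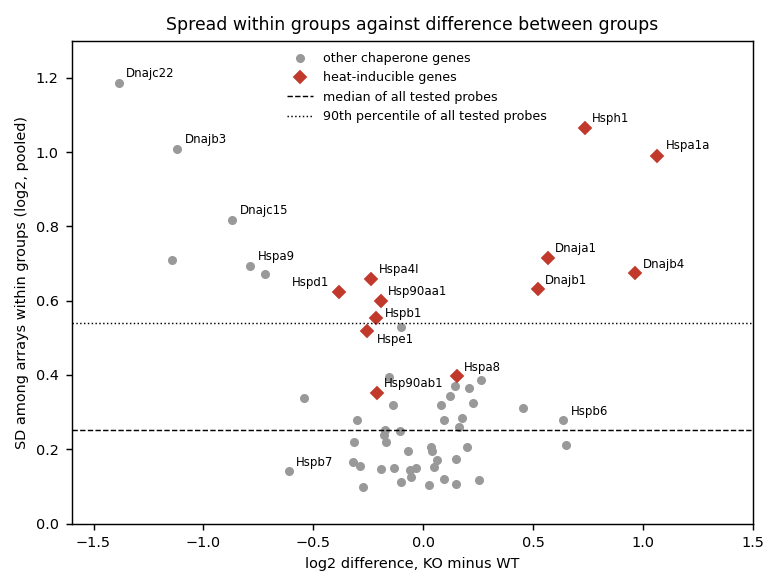
Pooled SD among arrays within groups (vertical axis, log2 units) against the log2 difference, KO minus WT (horizontal axis), for the 61 chaperone genes tested. Diamonds are the 12 heat-inducible genes, of which 9 lie above the dotted line (0.54, the 90th percentile of all tested probes); the dashed line is the median of all tested probes (0.25).

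The median difference of the heat-inducible list moved with the arrays that set its spread. It was 0.21 without KO array 1, 0.26 without WT array 1 and -0.22 without WT array 2. Without KO arrays 2 and 3 together it was -0.25.

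Other lists also set WT array 1 apart. Skeletal muscle markers, 11 of 11 tested, had list means of -0.48, -0.90 and -0.88 on the KO arrays and 1.38, -2.01 and -0.87 on the WT arrays, so that WT array 1 was the highest and WT array 2 the lowest. Glucocorticoid-responsive genes, 6 of 6 tested, had list means of 2.90, 3.27 and 2.99 on the KO arrays and 4.27, 3.04 and 3.24 on the WT arrays, again highest on WT array 1. The part of muscle content or of glucocorticoid response in the heat-inducible values was not tested.

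Several mitochondrial members, grouped here after their values were seen, had another order, low on KO arrays 2 and 3 and on WT array 2. Hspa9, the mitochondrial HSP70 that pulls proteins through the inner membrane, lay at 4.82, 3.56 and 3.39 on the KO arrays and at 5.06, 4.02 and 5.05 on the WT arrays (-0.79 ± 0.44, adjusted p = 0.65). Dnaja3, its DNAJ partner in the matrix, lay at 3.67, 2.41 and 2.27 on the KO arrays and at 3.71, 2.87 and 3.93 on the WT arrays (-0.72 ± 0.42). Dnajc15, a DNAJ protein of the inner membrane, lay at 5.07, 3.42 and 3.21 on the KO arrays and at 5.07, 4.14 and 5.09 on the WT arrays (-0.87 ± 0.51). For all of these KO array 1 lay beside WT arrays 1 and 3, and the other KO arrays were the lowest of the 6.

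The chaperonin subunits belong to both sets. Hspd1 (HSP60) lay at 5.34, 4.30 and 4.58 on the KO arrays and at 5.64, 4.32 and 5.40 on the WT arrays (-0.38 ± 0.40). Hspe1 (HSP10), its lid, lay at 5.35, 4.64 and 4.75 on the KO arrays and at 5.71, 4.48 and 5.30 on the WT arrays (-0.25 ± 0.34). They were high on KO array 1 as the mitochondrial members were, and highest on WT array 1 as the heat-inducible genes were. Dnajc19, part of the import motor, was also lower on average (-0.30 ± 0.22), with overlapping groups at its brightest probe. At a dimmer probe (-0.35 ± 0.17) the groups did not overlap. Dnajc30, likewise mitochondrial, did not share this order, at 2.30, 2.44 and 2.45 on the KO arrays and 2.35, 2.53 and 2.61 on the WT arrays (-0.10 ± 0.15).

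**Figure D4:**
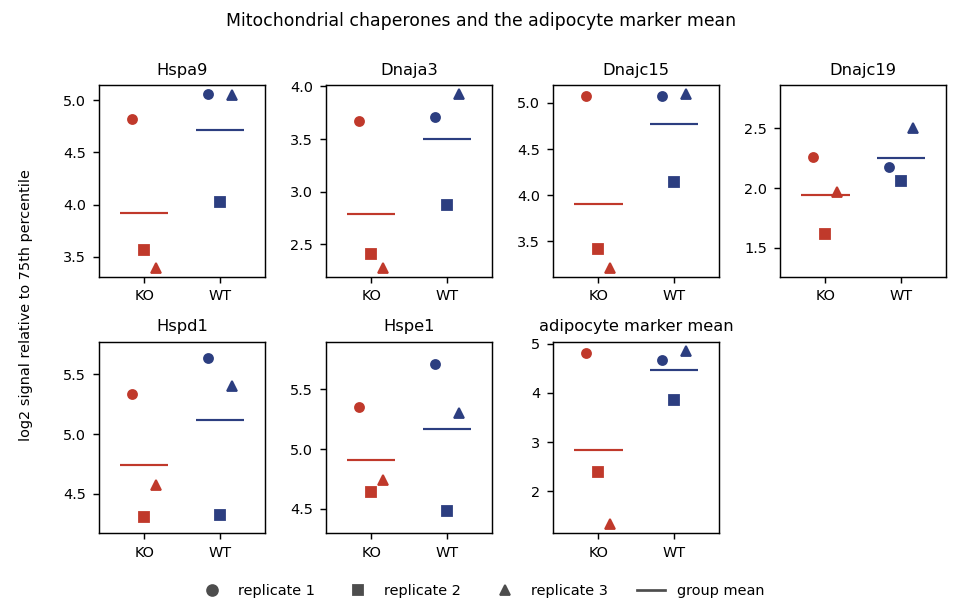
Log2 signal relative to the array's 75th percentile (vertical axes, each with its own range) of 6 mitochondrial chaperone genes and the mean of 20 adipocyte markers, by group (KO left, WT right), with 1 symbol per array and a line at the group mean (n = 3 each). Hspa9, Dnaja3 and Dnajc15 are lowest on KO replicates 2 and 3, the arrays with the lowest adipocyte marker means (2.39 and 1.32).

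The adipocyte marker mean was lowest on the same arrays, at 2.39 and 1.32 on KO arrays 2 and 3, and lowest of the WT arrays on array 2, at 3.86. Brown fat, which surrounds the arch in mice, is rich in mitochondria. Without KO arrays 2 and 3, which leaves a lone KO array, the differences were 0.11 for Hspa9, 0.17 for Dnaja3 and 0.31 for Dnajc15. They were 0.21 for Hspd1, 0.19 for Hspe1 and 0.0098 for Dnajc19. The genes were grouped for low values on the arrays left out. Their change of sign therefore follows from that choice and is no separate evidence. The share of spots well above background was also lowest on KO arrays 2 and 3, and lowest of the WT arrays on array 2. The part of fat content or of array-wide detection in these values was not tested.

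Small heat shock proteins held the member with the smallest p. Hspb7, known from heart and vessels, lay at 2.00, 2.10 and 2.12 on the KO arrays and at 2.49, 2.71 and 2.86 on the WT arrays. The KO arrays were close together and all lay under the lowest WT array. The mean in KO arches was 0.655 of that in WT arches (log2 difference -0.61 ± 0.16, SE, n = 3 per group, limma adjusted p = 0.445). Over 17 alternative settings, including those without each array, the difference stayed between -0.71 and -0.52, and the smallest adjusted p was 0.161. Its probe lies at chr4:140980355-140980414 of mm9 on the plus strand.

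Hspb6 (HSP20), which promotes relaxation of arterial smooth muscle, lay on the other side. It was at 5.12, 5.51 and 5.39 on the KO arrays and at 4.43, 5.08 and 4.60 on the WT arrays. Every KO array was above every WT array, although KO array 1 and WT array 2 nearly met. The mean was 1.56-fold higher in KO arches (0.64 ± 0.22, adjusted p = 0.513), and the difference ran from 0.41 to 0.83 over the 17 settings. The probe lies at chr7:31340398-31340457 of mm9 on the plus strand. The Hspb6 promoter held 1 match of the 8-letter element, though the gene stands outside the heat-inducible list. Matches were also found for Dnajc10, Dnajb6, Dnajc5g, Hspb8, Dnaja4, Dnajc27 and Hspb3, which are outside the list too. The Hspb6 stretch is written in the same way in GRCm38.p6 coordinates.
Hspb6, chr7:30553141-30553228, plus strand: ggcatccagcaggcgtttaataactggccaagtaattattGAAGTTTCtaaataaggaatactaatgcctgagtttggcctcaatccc

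The smooth muscle marker mean was 5.48, 5.93 and 6.09 on the KO arrays and 5.46, 5.62 and 5.38 on the WT arrays, with 8 of 9 markers on the higher side in KO arches and 1 at an unadjusted p under 0.05. Markers of cardiac muscle, 12 of 12 tested, had means of 0.52, -1.52 and 0.10 on the KO arrays and -1.25, -0.74 and -1.19 on the WT arrays, and 10 of 12 were on the higher side in KO. The part of muscle content in the Hspb6 and Hspb7 values was not tested. Leaving out KO arrays 2 and 3 gave 0.41 for Hspb6 and -0.69 for Hspb7.

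The other small heat shock proteins overlapped between groups. Hspb2, a partner of Hspb3 in muscle, lay at 3.85, 4.69 and 4.82 on the KO arrays and at 4.10, 4.36 and 4.11 on the WT arrays (0.26 ± 0.27). Hspb11, which in cilia is part of the transport machinery, lay at 1.35, 1.77 and 1.87 on the KO arrays and at 1.44, 1.56 and 1.40 on the WT arrays (0.20 ± 0.19). Hspb8, which works with Bag3 in clearing damaged proteins, differed by -0.14 ± 0.24, and Hspb9 by 0.15 ± 0.17. The differences without KO arrays 2 and 3 were -0.34 for Hspb2 and -0.12 for Hspb11. Hspb3 was not well above background on any array.

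**Figure D5:**
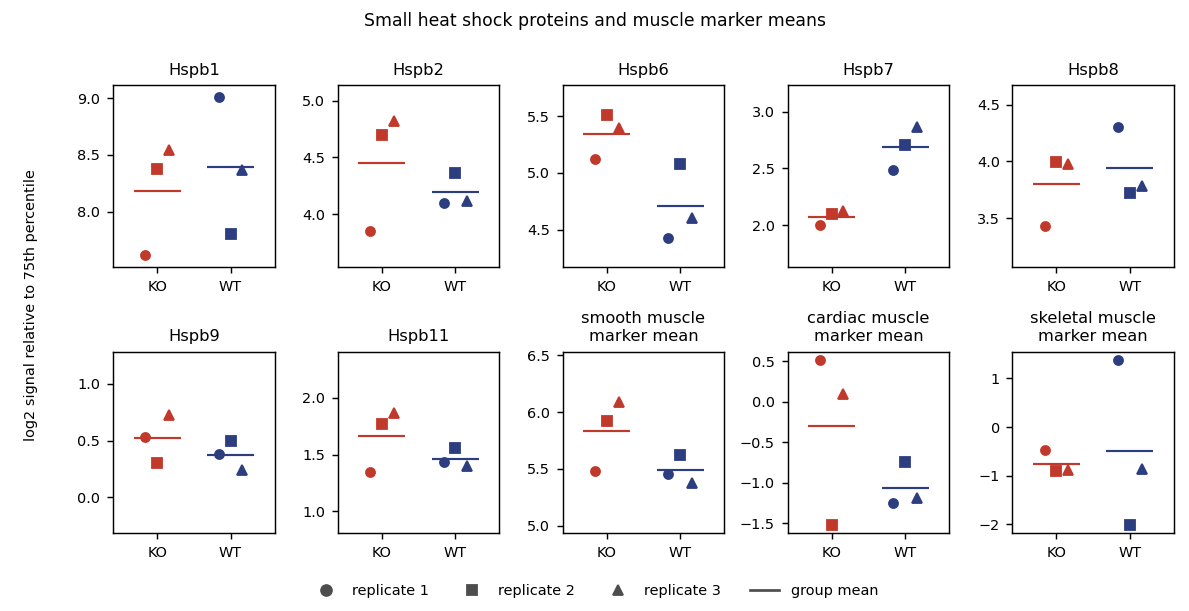
Log2 signal relative to the array's 75th percentile (vertical axes, each with its own range) of the 7 small heat shock protein genes tested and of 3 muscle marker means, by group (KO left, WT right), with 1 symbol per array and a line at the group mean (n = 3 each). KO and WT arrays do not overlap for Hspb6 (KO higher) and Hspb7 (KO lower) and overlap for the other 5 genes.

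The remaining HSP70 members overlapped between groups. Hspa12b, a distant HSP70 of endothelial cells, lay at 1.14, 0.80 and 0.63 on the KO arrays and at 1.36, 1.02 and 1.14 on the WT arrays (-0.32 ± 0.19), while a dimmer probe of the gene gave 0.23. Endothelial markers, 9 of 9 tested, had means of 1.63, 1.42 and 1.06 on the KO arrays and 1.80, 1.72 and 1.66 on the WT arrays. Both Hspa12b and this mean were thus lowest on KO array 3. Hspa1l, a relative of Hspa1a made mainly in testis, lay at -1.15, -0.76 and -0.33 on the KO arrays and at -1.08, -1.14 and -1.38 on the WT arrays (0.46 ± 0.23). With KO arrays 2 and 3 left out, Hspa12b differed by -0.03 and Hspa1l by 0.05. Hspa2, Hspa4, Hspa13 and Hspa14 differed by -0.11 to 0.21 at their brightest probes, and the other Hspa4 probes gave 0.36 ± 0.24 and 0.66 ± 0.30. Hspbp1, an exchange factor of HSP70, lay at 1.72, 1.69 and 1.46 on the KO arrays and at 1.37, 1.45 and 1.29 on the WT arrays, which did not overlap (0.25 ± 0.16, adjusted p = 0.672).

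Among the DNAJ co-chaperones outside these sets, Dnajc5b, a relative of the cysteine string protein Dnajc5 of secretory vesicles, had the smallest p. It was dim, at -2.81, -3.16 and -2.97 on the KO arrays and -3.54, -3.46 and -3.91 on the WT arrays. All KO arrays lay above all WT arrays (1.57-fold, 0.65 ± 0.19, adjusted p = 0.461), at chr3:19510673-19510732 of mm9 on the plus strand. The difference ran from 0.37 to 0.82 over the 17 settings, and a second probe of the gene was not well above background on any array.

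Some dim DNAJ probes had low values on the KO arrays that were low in fat genes. Dnajc28 lay at -1.95, -3.53 and -3.41 on the KO arrays and at -1.43, -2.36 and -1.67 on the WT arrays (-1.14 ± 0.45, adjusted p = 0.552). Dnajc22 lay at -2.91, -5.23 and -5.43 on the KO arrays, being well above background on 1 of these, and at -3.19, -4.04 and -2.18 on the WT arrays (-1.39 ± 0.72). Dnajb3, made mainly in testis, lay at -2.12, -3.67 and -4.55 on the KO arrays, 2 of them well above background, and at -2.39, -3.02 and -1.57 on the WT arrays (-1.12 ± 0.62). All were low on KO arrays 2 and 3, as the adipocyte mean and the share of spots well above background were. KO array 1 lay among the WT arrays. Without KO arrays 2 and 3 the difference was 0.23 for Dnajc22, 0.21 for Dnajb3 and -0.13 for Dnajc28. Dnajc22 and Dnajb3 were tested only through the WT arrays, so their differences rest on KO values at or near background. With normexp background correction they were -0.21 for Dnajc22, -0.29 for Dnajb3 and -0.48 for Dnajc28.

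Dnajc7, which binds both HSP70 and HSP90, lay at 2.89, 2.21 and 2.32 on the KO arrays and at 3.16, 2.66 and 3.22 on the WT arrays (-0.54 ± 0.25). Dnajb12, anchored in the membrane of the endoplasmic reticulum, lay at 0.25, 0.02 and 0.27 on the KO arrays and at 0.45, 0.48 and 0.44 on the WT arrays (-0.27 ± 0.15). Dnajc21, which acts in ribosome assembly, lay at -0.14, -0.01 and 0.03 on the KO arrays and at 0.39, 0.03 and 0.41 on the WT arrays (-0.32 ± 0.17). The groups did not overlap for Dnajb12 and Dnajc21, though for Dnajc21 the highest KO and the lowest WT array nearly met, and its second probe gave 0.04. Dnajc25 lay at 0.63, 0.73 and 0.87 on the KO arrays and at 0.82, 1.17 and 1.10 on the WT arrays (-0.29 ± 0.17), and without KO arrays 2 and 3 Dnajc7 differed by -0.12. Dnajc24, needed for diphthamide synthesis, lay at 0.82, 0.73 and 1.02 on the KO arrays and at 0.67, 0.73 and 0.71 on the WT arrays (0.15 ± 0.15), with overlapping groups.

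The DNAJA and DNAJB genes not yet named (Dnaja2, Dnaja4, Dnajb2, Dnajb5, Dnajb6, Dnajb8 and Dnajb14) had differences between -0.19 and 0.16 at their brightest probes. A dim second probe gave 0.29 for Dnaja4. Those of the DNAJC genes not yet named lay between -0.18 (Dnajc11) and 0.18 (Dnajc27). Dimmer probes gave 0.27 for Dnajc11 and -0.28 for Dnajc14, where the brightest gave 0.03. Dnajc5 itself differed by 0.23 ± 0.24 at its brightest probe and by 0.85 ± 0.32 at its dimmest, well above background on only 2 WT arrays. Its probes of brightness between these gave -0.235 ± 0.18 and -0.03 ± 0.18, so the probes of this gene disagreed in sign. Of the 7 genes that were not tested, Hspa12a, Dnajb13, Dnajc5g and Dnajc6 reached the background criterion on at least 1 array, and Dnajb7, Hspb3 and Hspbap1 on none.

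The wider chaperone pathway showed no calls either. Of 42 further genes (heat shock factors, HSP70 and HSP90 co-chaperones, BAG exchange factors, crystallins and the cytosolic chaperonin), 41 were tested, and 0 passed limma's adjusted test or an unadjusted p under 0.05. Of all tested probes, 8.71% had an unadjusted p under 0.05 in either direction. In KO arches 21 were on the higher and 20 on the lower side, with a median of 0.01. Hsf1 lay at 1.33, 1.64 and 1.62 on the KO arrays and at 1.39, 1.27 and 1.24 on the WT arrays (0.23 ± 0.16), and Bag3, an HSF1 target, at 3.51, 3.90 and 4.10 on the KO arrays and 3.82, 3.57 and 3.48 on the WT arrays (0.21 ± 0.20). Stip1, which links HSP70 to HSP90, lay at 1.55, 2.22 and 2.08 on the KO arrays and at 2.88, 1.62 and 2.23 on the WT arrays (-0.29 ± 0.34). Hsf1, Bag3 and Stip1 were lowest of the KO arrays on array 1 and highest of the WT arrays on array 1, the order of the heat-inducible members. This order held for 11.2% of all tested probes and was not counted over the wider list. Grpel1, the exchange factor of Hspa9, lay at 4.58, 3.85 and 3.75 on the KO arrays and at 4.65, 3.83 and 4.75 on the WT arrays (-0.35 ± 0.32), the order of the mitochondrial members.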

How the data were processed

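RNA of 6 aortic arches was measured on 1-colour 60-base arrays. Per the file headers, the deposited values are linear intensity readings, background-subtracted by Agilent Feature Extraction 10.7.3.1, and the authors deposited a series table of the same values (within 0.5%). Groups follow the sample titles. Each log2 signal was taken relative to its array's 75th percentile over non-control spots, spots flagged as outliers were left out (10 probes were set aside for them) and the spots of a probe were averaged. A probe was tested where it was well above background on all 3 arrays of a group. Differences were fitted over 38341 probes with limma 3.58.1 (lmFit and eBayes, R 4.3.3), as two-sided tests adjusted by Benjamini-Hochberg, at a threshold of 0.05, and the fit was tested on simulated data. The number of arrays limits the precision. The labels give no batch, and beyond the design's mention of mice nothing says that samples were separately prepared.

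The 12 members with the smallest p in each direction and every heat-inducible member are given on each array. Other probes of these genes are given where they disagree in sign or by over 1.5-fold. Other members are given as ranges, and those singled out besides were chosen after their values were seen. Members, lists and tests were chosen with earlier results of these data known. The labels do not say that same-numbered KO and WT samples belong together, so the main fit did not treat the numbers as pairs. Their deviations from the group means had correlations of 0.12, 0.05 and -0.28 for replicates 1 to 3. Differently numbered samples were not compared, so these values cannot decide whether the samples were paired. The alternatives tried were normexp background correction, quantile and median scaling, other filters for dim probes, the series table, a replicate block, the variance model, array weights, the probe standing for a gene, leaving out each array, and leaving out KO arrays 2 and 3. Promoter sequences are RefSeq's, GRCm38.p6. All 103 probes matched a RefSeq symbol, by transcript or, failing that, by the gene name itself. For some, such as the brightest probes of Dnajc25 and Dnajb5, no listed transcript was found in RefSeq. Probe coordinates are those of the files, on mm9, and their place in exons or untranslated regions was not analysed here.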

Additional observations from a re-analysis of the deposited data

How the results depend on the processing

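No member gene passed the adjusted test in any alternative run (0 of 61 in the full comparison, limma, with 4 at an unadjusted p under 0.05). Over all probes the single call became 4 with normexp background correction, 2 with array weights, 2 with median centring, 0 with a filter on all 6 arrays, 2 when the variance was moderated by a robust trend and 6 without KO arrays 2 and 3, and ran from 1 to 3 when each array was left out. The 4 member genes at an unadjusted p under 0.05 became 7 with the replicate block (2 higher, 5 lower), 15 with array weights (5 higher, 10 lower) and 2 without KO arrays 2 and 3, and ran from 2 to 18 when each array was left out. As a share of the genes this was 11.5% with the replicate block, 24.6% with array weights and 3.17% without KO arrays 2 and 3, against 7.93%, 18.7% and 9.61% of all tested probes in those fits. The replicate block changed no adjusted call of a member. With normexp, 1857 probes were higher and 1107 lower at an unadjusted p under 0.05, against 1703 and 1636.

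Of 525 values of 31 named genes, 501 kept their sign and side of the threshold and 24 changed sign. With each array left out, Hspb1 ran from -0.51 to 0.094, Hspa4l from -0.64 to 0.19, Hsp90aa1 from -0.53 to 0.16, Hspa8 from -0.085 to 0.34, Hsp90ab1 from -0.42 to 0.018 and Hspe1 from -0.59 to 0.018. Without KO arrays 2 and 3 the log2 differences were 0.23 for Dnajc22, 0.21 for Dnajb3, 0.11 for Hspa9, -0.27 for Hspa1a, 0.31 for Dnajc15, 0.17 for Dnaja3, -0.29 for Dnajb1, -0.19 for Dnaja1, -0.10 for Hsph1, -0.12 for Hspb11, -0.34 for Hspb2, 0.21 for Hspd1, 0.19 for Hspe1 and -0.23 for Hspa8. That fit has a lone KO array, assumed to vary as the WT arrays do. The cause of these changes was not tested beyond the fewer arrays. A slide or scan block could not be fitted, since there was 1 slide. Probes near background, such as those of Dnajc22 and Dnajb3, have values that depend on the background correction.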

Other observations

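The cold-inducible RNA-binding proteins, which cells make more of when cooled, ran opposite to the heat-inducible chaperones on the WT arrays. Cirbp lay at 1.95, 1.96 and 2.43 on KO arrays 1 to 3, against 0.60, 3.76 and 2.50 on WT arrays 1 to 3, so that WT array 1 was the lowest and WT array 2 the highest of the 6 (log2 difference -0.17 ± 0.70, SE, n = 3 per group, limma adjusted p = 0.959). Rbm3 lay at 2.57, 2.88 and 3.48 on the KO arrays, against 2.73, 3.88 and 3.64 on the WT arrays (-0.44 ± 0.35), again lowest on array 1 and highest on array 2 among WT arrays. Among the KO arrays Rbm3 was lowest on array 1, where the heat-inducible list mean was lowest as well, and Cirbp was about equally low on arrays 1 and 2. Fkbp5, an HSP90 co-chaperone that glucocorticoids induce, lay at 2.11, 2.39 and 2.27 on the KO arrays, against 4.43, 2.16 and 2.91 on the WT arrays (-0.91 ± 0.51). Its value on WT array 1 stood above the other 5. Of 12 circadian clock genes tested, 3 were higher and 9 lower in KO arches at an unadjusted p under 0.05 (limma). This compares with 4.44% and 4.27% of all tested probes, and 0 of the 12 passed the adjusted test. The genes were taken from lists chosen with earlier results known, and neither body temperature nor the hour of collection is given in the sources used here. The part of either in the member values was not tested.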
